A study of Mus musculus with 5 samples.

Results

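The T-box genes *Tbx1*, *Tbx2*, *Tbx3*, *Tbx5*, *Tbx18* and *Tbx20* were followed through 5 Tag-seq libraries of the mouse embryonic heart. These 6 genes were chosen by name as the T-box transcription factors of the heart, from 23202 genes that carry a tag the method could read, of which 13489 had a listed tag in at least 1 library. Wild-type C57BL/6 embryos at E10.5 (Theiler stage 17) gave libraries of the atrioventricular canal (AVC), the outflow tract (OFT), the atria and the ventricles, and the AVC of *Twist1* Knockout embryos of the ICR strain at the same stage gave the *Twist1* null AVC library. Each library was made from tissue pooled over at least 3 litters, and each group holds 1 library, so no replicate error could be computed. The null and the wild-type AVC differ in both strain and genotype, and these cannot be told apart. The libraries hold cells of all types in the dissected region, so fewer cells of a type and less RNA per cell cannot be told apart.

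T-box factors are transcription factors that bind a short shared DNA motif, some as activators and some as repressors, and several of them compete for the same sites in heart genes. In the embryonic heart, *Tbx5* and *Tbx20* act with Nkx2-5 and GATA factors in working myocardium, whereas *Tbx2* and *Tbx3* repress the chamber programme and so mark slowly conducting myocardium such as that of the canal. *Tbx18* marks the epicardium and the sinus venosus, and *Tbx1* acts in the second heart field that feeds the outflow tract.

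Tag-seq reads 17 bases downstream of an NlaIII site, CATG, so a gene is seen as a set of tags at fixed places of its transcript. A tag was credited to a gene where that gene, and no other, holds it in the sense direction, and the level of a gene is the sum of its tags scaled to 1000000 tags of the library (TPM, tags per 1000000). The most abundant tag of each gene in the wild-type AVC, or for *Tbx1* in the OFT, is shown here. The level in that library rests mainly on it. The capitals mark the NlaIII site.
*Tbx1*, 3′ UTR, chr16:18581915-18581935, minus strand: CATGcgggtttcccgcccgcc
*Tbx2*, 3′ UTR, chr11:85841474-85841494, plus strand: CATGtccgcttggtcttccca
*Tbx3*, 3′ UTR, chr5:119684552-119684572, plus strand: CATGaaaggcaaaacaaaaca
*Tbx5*, 3′ UTR, chr5:119883799-119883819, plus strand: CATGttccccgattgtttctc
*Tbx18*, 3′ UTR, chr9:87702869-87702889, minus strand: CATGcattgttgcattgttaa
*Tbx20*, 3′ UTR of the long transcript, chr9:24721305-24721325, minus strand: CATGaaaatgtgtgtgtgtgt

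Coordinates are of GRCm38, from the match of the tags to the GENCODE transcripts. The *Tbx20* tag holds a run of GT repeats, and 4 further *Tbx20* tags are shown because they carry the comparison with the null AVC. The tag at the end of the short transcript reads that transcript alone, and the other 3 lie in the 3′ UTR of the long transcript.
*Tbx20*, 3′ UTR of the short transcript, chr9:24740278-24740298: CATGaaacaggtgttaaaaac
*Tbx20*, long transcript, chr9:24723065-24723085: CATGagaatgaaaggattgtt
*Tbx20*, long transcript, chr9:24721772-24721792: CATGttcttattctgtattct
*Tbx20*, long transcript, chr9:24723765-24723785: CATGccaccagtgcctggcct

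The libraries held 4223810 to 12977237 deposited tags, and tag types with 5 tags or fewer were left out by the submitters, so the lowest listed level was between 0.462 TPM in the null AVC and 1.42 TPM in the ventricles. *Twist1*, the deleted gene, was measured at 918 TPM for the AVC, 299 for the OFT, 63.4 for the atria, 55.9 for the ventricles and 4.55 for the null AVC. All 6 cardiomyocyte markers were listed in every library. Their sum came to 15416 TPM for the AVC, 17186 for the OFT, 15313 for the ventricles and 6585 for the atria. Globin and other erythroid markers summed to 2422 TPM for the AVC and 3079 for the OFT, against 215353 for the atria, 46710 for the ventricles and 27350 for the null AVC. Intervals in what follows are 95% and cover counting error only, and p-values are from the edgeR exact test with an assumed dispersion of 0.12. Such a p compares 2 libraries or sums of libraries, not conditions.

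*Tbx20*, a factor of both myocardium and endocardial cushions, was high in the cushion-forming regions and lower in the chambers. Its level was 338 TPM (323 to 353) in the AVC and 297 TPM (283 to 312) in the OFT. It was 100.1 TPM (90.8 to 110.2) in the ventricles and 68.6 TPM (61.3 to 76.5) in the atria. The null AVC lay between the 2 wild-type cushion regions and the chambers, at 239 TPM (231 to 248), and no neighbours in this order had overlapping counting intervals. In the wild-type libraries these sums are mostly 1 tag with a GT repeat, whose uniqueness in the genome was not checked. For either *Tbx20* transcript variant the study reported lower levels in these libraries than this tag alone holds here. The study found neither variant significantly changed in the null AVC, and saw no *Tbx20* change by in situ hybridization. In the null AVC the tag made up 17.6% of the sum. Without this tag the order is the null AVC at 197 TPM, the AVC at 110 and the OFT at 83.1, above the ventricles and atria.

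*Tbx3*, a repressor of chamber genes in canal and conduction myocardium, was graded over the libraries. It stood at 121 TPM (115 to 127) in the null AVC and 90.0 TPM (82.6 to 97.9) in the AVC. It was down to 14.6 TPM (11.5 to 18.3) in the OFT and 7.29 TPM (5.05 to 10.2) in the atria. Among the 4 libraries with listed tags no neighbouring counting intervals overlapped. No *Tbx3* tag was listed in the ventricles, where 5 tags for each of the 7 known *Tbx3* tag types would still allow 8.29 TPM, so the order of the atria and ventricles is not bounded.

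*Tbx2*, the related repressor of the canal, was split between listed and unlisted libraries. It reached 21.1 TPM (18.7 to 23.8) in the null AVC, 20.1 TPM (16.7 to 24.0) in the AVC and 8.73 TPM (6.39 to 11.6) in the OFT. No *Tbx2* tag was listed in the atria or the ventricles. A tag type missing from a list could still have had 5 tags, and over the 6 *Tbx2* tag types seen in any library this would allow up to 6.43 TPM in the atria and 7.10 TPM in the ventricles, close to the OFT level. The null and wild-type AVC did not differ beyond counting error.

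*Tbx5*, the factor mutated in Holt-Oram syndrome, was at 61.3 TPM (57.1 to 65.7) in the null AVC and 61.1 TPM (55 to 67.6) in the AVC. The ventricles and the atria were close to each other at 10.4 TPM (7.57 to 14.0) and 9.86 TPM (7.22 to 13.1). The OFT was the lowest at 5.13 TPM (3.38 to 7.46). The intervals of the ventricles and atria overlapped, as did those of the atria and OFT, whereas both AVC libraries stood apart from the rest.

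*Tbx18*, a gene of the epicardium and the venous pole, had the flattest profile of the 5 genes listed in more than 1 library. It was at 100.9 TPM (93.1 to 109) in the AVC and 80.5 TPM (72.2 to 89.5) in the ventricles. The null AVC had 72.6 TPM (68.0 to 77.4) and the atria 70.5 TPM (63.1 to 78.5). The OFT was lowest at 38.3 TPM (33.2 to 44.0). The intervals of the ventricles and the null AVC overlapped, as did those of the null AVC and the atria, while the AVC and the OFT stood apart from their neighbours.

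*Tbx1*, the gene linked to DiGeorge syndrome, was at the limit of what these lists can show. A single tag type with 9 tags was listed in the OFT, or 1.71 TPM (0.781 to 3.24). No *Tbx1* tag was listed in the other 4 libraries, where 1 missing tag type leaves room for 0.385 TPM in the null AVC to 1.18 TPM in the ventricles.

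**Figure D1:**
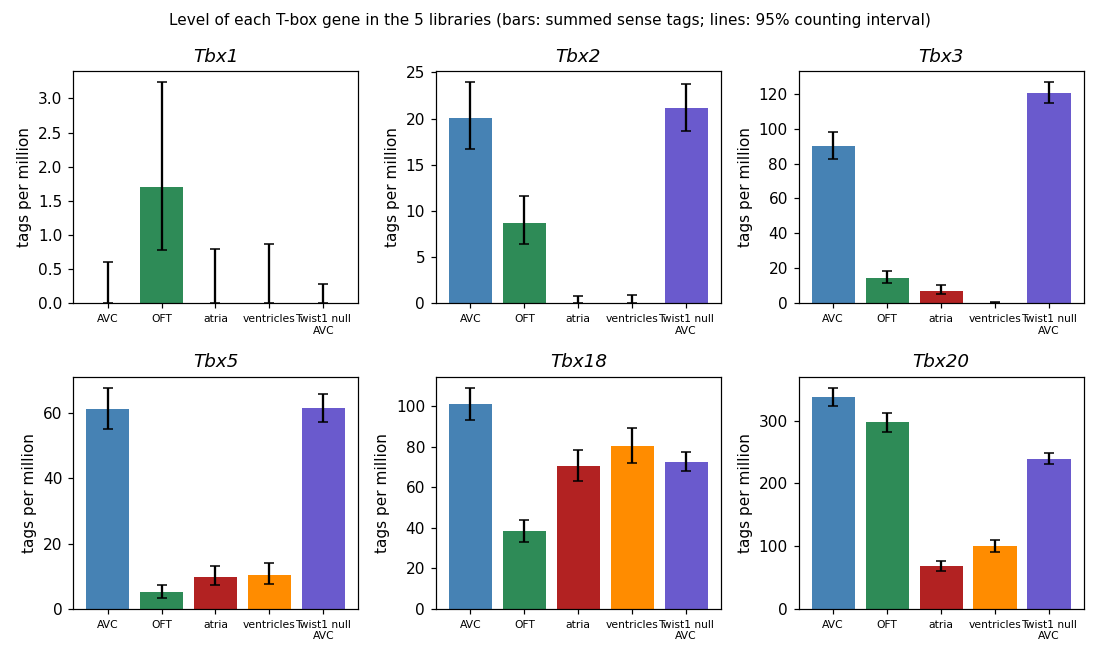
Level of each gene in TPM (vertical axis, from 0) in the 5 libraries; bars are the summed sense tags and lines the 95% Poisson counting interval. *Tbx2* and *Tbx3* stand high in both AVC libraries and are missing from the ventricles, *Tbx18* is lowest in the OFT at 38.3 TPM, and *Tbx1* has 9 tags in the OFT and none elsewhere.

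The AVC was compared with the chambers, taken as the sum of the atria and ventricles, to find genes raised where the cushions form. The chamber libraries listed fewer tag types, 35109 for the atria and 32822 for the ventricles, against 58407 for the AVC and 56744 for the OFT. Chamber tag types with 5 tags or fewer count as 0 in the folds, except where 5 tags are filled in. *Tbx2*, *Tbx3*, *Tbx5* and *Tbx20* were called higher in the AVC, which is 4 of the 5 members that could be tested. Across all 12506 genes tested 43.4% were called higher and 8.12% lower, so a higher call is common in this contrast. *Tbx3* showed 90.0 TPM against 3.82 in the chambers, a 23.5-fold difference (16.6 to 34.3, exact p = 1.2e-07), and with 5 tags for tag types missing from a chamber its log2 ratio went from 4.55 to 3.25 (exact p = 4.6e-05). For *Tbx2* the difference was 2.98-fold at the least, counting error aside (exact p = 7.5e-10). This takes 5 tags in each chamber library for each *Tbx2* tag type seen in any library.

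*Tbx5* was 6.03-fold higher in the AVC (4.78 to 7.68, exact p = 0.00088) and *Tbx20* 4.04-fold higher (3.71 to 4.40, exact p = 0.00703). *Tbx18* was not called, at 1.34-fold (1.20 to 1.5, exact p = 0.562). *Tbx1* had no tag on either side. With genes missing from 1 side at their bound, the median log2 ratio of the 5 members was 2.01, and the median over all genes tested was 0.88. The same 4 members were called when the atria alone or the ventricles alone stood for the chambers and when haemoglobin tags were taken out of the totals. Scaling by the trimmed mean of M-values (TMM) lowered the fitted median of all genes from a log2 ratio of 1.23 to 0.28 and the share of calls that were higher from 84.2% to 59.4%. *Tbx20* was then no longer called (log2 ratio 1.06, exact p = 0.145).

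The OFT was compared with the same summed chambers, so this contrast shares its control libraries with that of the AVC. *Tbx1*, *Tbx2*, *Tbx3* and *Tbx20* were called higher, 4 of 6 members, beside 40.6% of the 12453 genes tested called higher and 8.88% called lower. *Tbx20* was at 297 TPM against 83.6 in the chambers, 3.55-fold (3.26 to 3.88, exact p = 0.0138). *Tbx3* was 3.82-fold higher (2.52 to 5.90, exact p = 0.0178). For *Tbx2* the difference was 1.29-fold at the least, by the same filling and counting error aside (exact p = 6.23e-07).

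The *Tbx1* call rests on 9 tags, with a difference of at least 1.52-fold, counting error aside (exact p = 0.0078). With 5 tags put in for each tag type listed in 1 of the libraries compared and missing from another, the exact p was 0.656. The same filling gave an exact p of 0.103 for *Tbx2*. *Tbx5* at 0.506 of the chamber level (0.317 to 0.786, exact p = 0.215) and *Tbx18* at 0.510 (0.433 to 0.597, exact p = 0.187) were not called. With TMM scaling the all-gene median moved from 1.07 to 0.21 and the share of calls that were higher from 82.1% to 59.7%. *Tbx3* and *Tbx20* were then not called (exact p = 0.179 and 0.181), and *Tbx5* and *Tbx18* were called lower (log2 ratio -1.83 for both, exact p = 0.024 and 0.0147). Against the atria alone *Tbx3* was not called (log2 ratio 1.0, exact p = 0.205), and against the ventricles alone, which list no *Tbx3* tag, it was (exact p = 2.08e-07).

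Set directly against each other, the 2 cushion regions differed in *Tbx3* and *Tbx5*. *Tbx5* was 11.9-fold higher in the AVC than in the OFT (8.06 to 18.3, exact p = 1.7e-05), and *Tbx3* was 6.16-fold higher (4.84 to 7.92, exact p = 0.000776). In this contrast 7.36% of 12544 genes were called higher and 5.22% lower. *Tbx1* was called lower in the AVC (exact p = 0.0113), where it had no tag. The OFT was at 2.08 times the 0.823 TPM that 5 tags would give in the AVC. The OFT counting interval reaches down to 0.781 TPM, so a higher level in the OFT is not bounded. The adjusted p of *Tbx1* over all genes was 0.162, and with 5 tags in place of the missing tag type its exact p was 0.458.

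*Tbx2* was 2.30-fold higher in the AVC (1.63 to 3.30, exact p = 0.127), *Tbx18* 2.63-fold higher (2.24 to 3.10, exact p = 0.0599) and *Tbx20* 1.14-fold higher (1.06 to 1.21, exact p = 0.799). None of these 3 was called. The AVC and OFT thus had *Tbx20* at similar levels, within the assumed spread, while *Tbx5* differed most among the 5 genes with tags in both. With library sizes taken from all tags the share of calls that were higher moved from 58.5% to 43.0%, and the calls of *Tbx3* and *Tbx5* stayed.

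The ventricles were compared with the atria to separate the chambers. *Tbx3* was called lower in the ventricles (exact p = 3.39e-05), but the call takes the unlisted tags as 0, and with all *Tbx3* tag types at 5 tags the ventricles could hold 8.29 TPM against the 7.29 of the atria, so neither size nor direction is bounded. In this contrast 9.04% of 10707 genes were called lower and 11.1% higher. Filling 5 tags in for the tag types listed in the atria gave *Tbx3* an exact p of 0.0974. *Tbx5* (1.06-fold, 0.683 to 1.63), *Tbx18* (1.14-fold, 0.978 to 1.33) and *Tbx20* (1.46-fold, 1.26 to 1.69) were not called, with exact p-values of 0.967, 0.799 and 0.453.

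The null AVC was compared with the wild-type AVC to find genes that change where *Twist1* is lost. No member was called, beside 11.9% of 12966 genes called higher and 12.7% called lower. *Tbx3* was at 1.34 of the wild-type level (1.22 to 1.48, exact p = 0.56). *Tbx2* stood at 1.05 (0.846 to 1.31, exact p = 0.931) and *Tbx5* at 1.003 (0.886 to 1.14, exact p = 0.997). *Tbx18* was at 0.719 (0.649 to 0.798, exact p = 0.512) and *Tbx20* at 0.709 (0.670 to 0.750, exact p = 0.491).

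The counting intervals of *Tbx3*, *Tbx18* and *Tbx20* leave out 1, while those of *Tbx2* and *Tbx5* hold it. Without replicates the spread between libraries of a group was assumed and not measured, so a missed call does not show equal levels. The 6 cushion mesenchyme markers summed to 2156 TPM in the wild-type AVC and 378 TPM in the null, while the cardiomyocyte markers summed to 15416 and 15174 TPM. The erythroid markers summed to 2422 TPM in the wild-type and 27350 in the null AVC, and the 4 smooth muscle markers to 493 and 1021 TPM, and the part of any of these in the members' ratios was not tested. With TMM scaling the all-gene median moved from -0.16 to 0.08 and the share of calls that were higher from 48.3% to 61.3%, and no member was called.

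**Figure D2:**
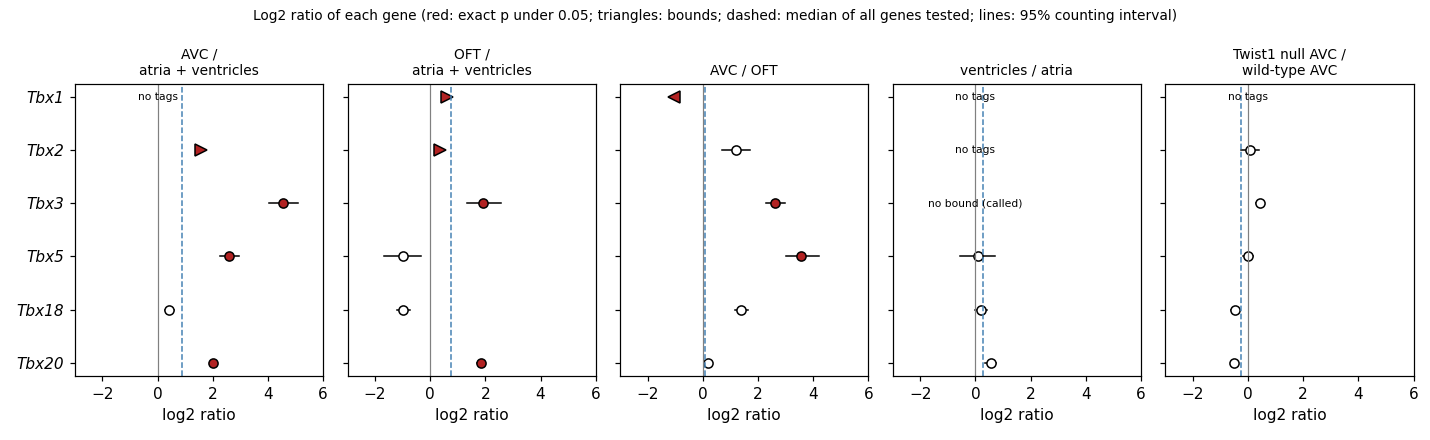
Log2 ratio (horizontal axis) of each gene in the 5 contrasts; circles are estimates with 95% counting intervals, triangles are bounds where 1 side has no tag, red marks an exact p under 0.05, and the dashed line is the median of all genes tested. The 4 red marks of the AVC against the chambers lie between 1.57 and 4.56, to the right of the all-gene median of 0.88, *Tbx3* has no bound between the chambers, and the null AVC panel has no red mark.

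The sum over tags hid a divided picture for *Tbx20*. The GT-repeat tag printed above was matched to *Tbx20* among transcripts, and whether it occurs elsewhere in the genome was not checked, so every *Tbx20* sum that holds it may include tags of other places. This tag, 3188 bases from the end of the long transcript, made up 67.3% (65.2 to 69.3) of the *Tbx20* tags of the AVC and 72% (69.7 to 74.2) of those of the OFT. In the chambers it was nearly the whole of the gene, with 91.6% (88.0 to 94.4) in the atria and 94.6% (92.0 to 96.5) in the ventricles. In the null AVC it was 17.6% (16.2 to 18.9). The AVC held 227 TPM of it, the OFT 214, the atria 62.8, the ventricles 94.7 and the null AVC 42.0.

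Summed without the repeat tag, *Tbx20* came to 110 TPM for the AVC, 83.1 for the OFT, 5.79 for the atria, 5.45 for the ventricles and 197 for the null AVC. The AVC was 19.6-fold above the chambers (14.7 to 26.7) and the OFT 14.8-fold (11 to 20.2). The atria listed 4 and the ventricles 3 of these 25 tag types, and with the missing types at 5 tags in each chamber the ratios were 3.71 and 2.79. With all low-complexity tags left out of the libraries, a choice made after seeing the data, the exact p of the AVC was 3.29e-07 and that of the OFT 2.76e-06.

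The direction of the *Tbx20* sum in the null AVC also depended on this tag and on a few others. Low-complexity tags of any gene made up 1.21% of the wild-type AVC library and 0.419% of the null library. The repeat tag alone was at 0.185 of the wild-type AVC level in the null (0.167 to 0.204), whereas the remaining *Tbx20* tags together were at 1.79 of it (1.64 to 1.95, exact p = 0.249 with low-complexity tags left out). Of 21 *Tbx20* tag types seen in either AVC library, 16 were in both, 3 had a counting interval above 1, 5 had it below 1 and 8 held 1. A further 3 were listed in the null AVC alone and 2 in the wild-type AVC alone. The tags at 4948 and 3655 bases from the end of the long transcript held 66.5 and 35.1 TPM in the null. In the wild-type AVC they held 7.57 and 5.60 TPM. Their neighbours at 4968 and 3679 bases held 12.3 and 9.40 TPM in the null and were not listed in the wild-type AVC. The ratio of 1.79 thus rests largely on these places, and most tag types did not share the rise.

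The largest rises in the null were at a pair of places in the long 3′ UTR. The tag CATGagaatgaaaggattgtt, 4948 bases from the end, went from 7.57 to 66.5 TPM, 8.78-fold (6.53 to 12.1). Its upstream neighbour CATGcctgtgttttcttttcc, 4968 bases from the end, was missing from the wild-type AVC and at 12.3 TPM in the null. The tag CATGttcttattctgtattct, at 3655 bases, went from 5.60 to 35.1 TPM, 6.27-fold (4.42 to 9.16), and its neighbour at 3679 bases from no listed tag to 9.40 TPM.

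Other tags of the same 3′ UTR moved the other way. The tag CATGccaccagtgcctggcct, at 5648 bases, was at 17.1 TPM in the wild-type AVC and 5.09 in the null, a ratio of 0.297 (0.215 to 0.408). As with the GT-repeat tag, whether this tag occurs elsewhere in the genome was not checked. The tag at 5286 bases had a ratio of 0.269 (0.161 to 0.441). The end tag of the short transcript, CATGaaacaggtgttaaaaac, gave 14.5 TPM for the AVC, 14.8 for the OFT, 1.29 for the atria, 2.13 for the ventricles and 9.02 for the null AVC. This tag showed the regional pattern of the gene, 8.58-fold above the chambers in the AVC (4.93 to 16.0), and a null to wild-type ratio of 0.622 (0.468 to 0.830).

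**Figure D3:**
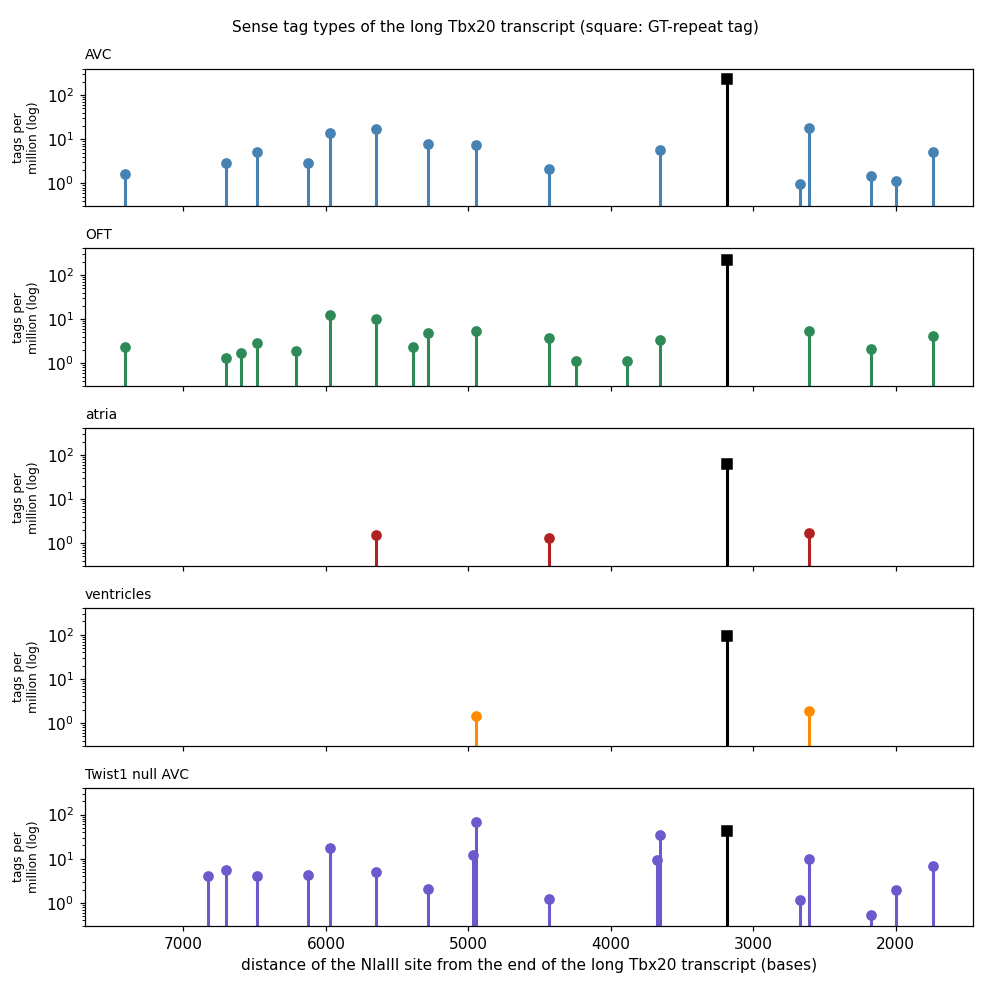
Sense tags of the long *Tbx20* transcript in the 5 libraries, by the distance of the NlaIII site from the transcript end in bases (horizontal axis, upstream to the left) and level in TPM (vertical, log axis); the black square is the GT-repeat tag. The repeat tag is the tallest in the 4 wild-type libraries, at 62.8 to 227 TPM, and in the null AVC the tag at 4948 bases, at 66.5 TPM, is taller.

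The *Tbx3* sum was carried by its tag 173 bases from the end, which gave 55.8 TPM for the AVC, 10.8 for the OFT, 4.93 for the atria and 82.6 for the null AVC. The next most abundant wild-type tag, CATGaaaccaaccgagttgat at 858 bases, was at 25.0, 3.8, 2.36 and 6.09 TPM in the same libraries. In the null AVC this tag was at 0.243 of the wild-type level (0.183 to 0.321), while the other 4 tags seen in both AVC libraries had ratios of 1.48 to 4.88 with intervals above 1. The *Tbx3* ratio of 1.34 is therefore a sum of tags that moved in opposite directions.

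*Tbx5* showed a similar split on a smaller scale. The tag CATGtgagatgtctacgaacg, 1126 bases from the end, went from 11.9 to 3.85 TPM in the null, a ratio of 0.325 (0.222 to 0.473). The tag at 126 bases was at 1.74 of the wild-type level (1.16 to 2.67), and the most abundant tag, at 1421 bases, at 1.12 (0.958 to 1.32). The tag CATGtgcttaaaagaaaaaaa, 15 bases from the end, was listed in the atria at 2.36 TPM and the ventricles at 1.89 TPM and in no other library.

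*Tbx18* was read mainly from its tag 90 bases from the end, which gave 64.2 TPM for the AVC, 13.3 for the OFT, 67.7 for the atria, 68.4 for the ventricles and 44.5 for the null AVC. In the atria this tag was 96.0% of the *Tbx18* tags and in the OFT 34.7%. The tag CATGgactatgtttatccaga, at 2191 bases, took 39.1% of the OFT tags and 3.95% of those of the atria. Most of the difference in the *Tbx18* sum between the AVC and the OFT thus lay in the end tag.

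For *Tbx2* the main tag, 475 bases from the end, gave 15.0 TPM for the AVC, 4.94 for the OFT and 14.2 for the null AVC, and both tags found in the 2 AVC libraries alike had null ratios whose intervals held 1. For tags with at least 50 counts over the 2 AVC libraries, a missing tag taken as 5, the standard deviation of the log2 null to wild-type ratios within a gene was 0.13 for *Tbx2*, 0.56 for *Tbx18*, 1.07 for *Tbx5*, 1.83 for *Tbx3* and 2.05 for *Tbx20*. Over 4536 genes with at least 2 such tags the median was 1.35, and 24.2% of genes had a larger value than *Tbx20* and 31.2% a larger value than *Tbx3*. The divergence among the *Tbx3* and *Tbx20* tags was thus above the median and within the range of the other genes. It was taken over 15 tags for *Tbx20* and 5 for *Tbx3*, against a median of 2 over these genes. These shares therefore do not compare like with like.

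**Figure D4:**
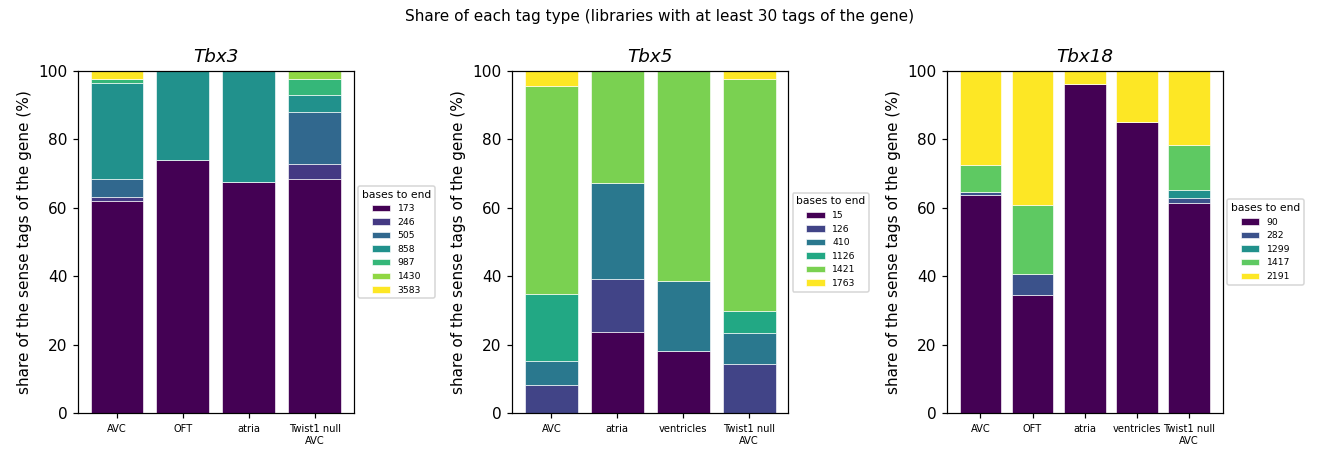
Share of each tag type (vertical axis, percent of the sense tags of the gene) for *Tbx3*, *Tbx5* and *Tbx18* in the libraries with at least 30 tags of the gene; colours give the distance of the NlaIII site from the transcript end in bases. The end tag of *Tbx18* takes 96.0% in the atria and 34.7% in the OFT, and the *Tbx3* tag at 858 bases shrinks in the null AVC.

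**Figure D5:**
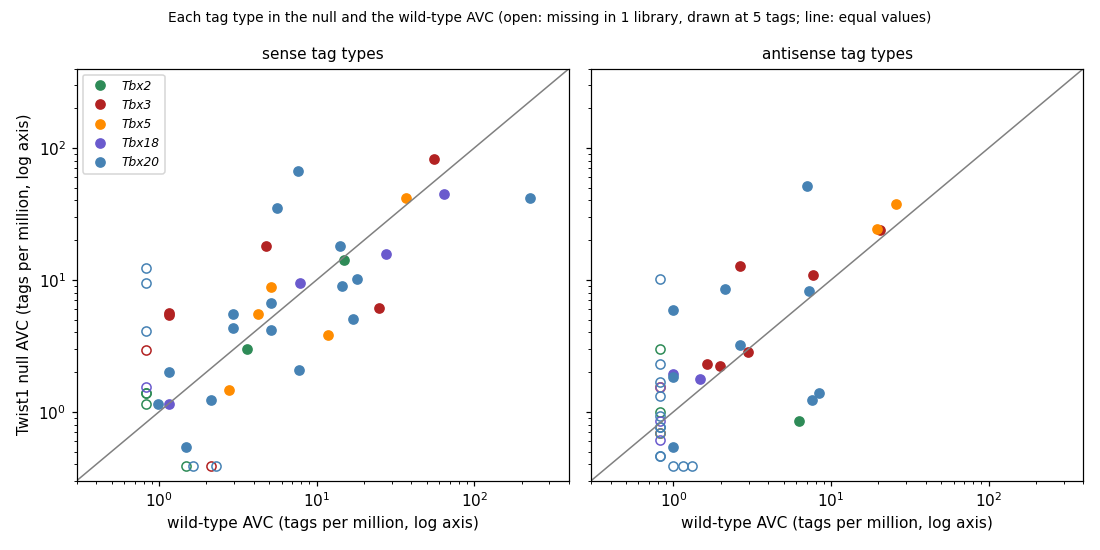
Each tag type of *Tbx2*, *Tbx3*, *Tbx5*, *Tbx18* and *Tbx20* in the wild-type AVC (horizontal) and the *Twist1* null AVC (vertical), in TPM on log axes, for sense tags (left) and antisense tags (right); open circles are missing from 1 library and drawn at 5 tags, and the line marks equal values. Among the filled sense circles the *Tbx20* repeat tag, at 227 against 42.0 TPM, lies farthest below the line and the *Tbx20* tag at 7.57 against 66.5 TPM farthest above it.

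The partners of T-box factors were followed beside the members. Of 10 such genes, among them the GATA and Hand factors, 9 were called higher in the AVC than in the chambers and 10 in the OFT, with median log2 ratios of 2.81 and 3.67 against 0.88 and 0.77 over all genes. Over all genes 43.4% and 40.6% were called higher in these contrasts. *Gata4*, a partner of Tbx5, reached 227 TPM for the AVC and 123 for the OFT, against 9.43 for the atria and 5.45 for the ventricles. *Hand2*, a bHLH factor of the outflow tract and right ventricle, reached 422 TPM for the AVC and 665 for the OFT, against 64.1 and 99.0 for atria and ventricles. In the null AVC 1 of the 10 was called, and it was higher, beside 11.9% of all genes called higher and 12.7% called lower. This was *Nkx2-5*, at 55.9 TPM against 14.3 in the wild-type AVC, a gene singled out after its values were seen. No *Nkx2-5* tag was listed in the atria or the ventricles.

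Genes of the chamber myocardium, several of which Tbx2 and Tbx3 are known to repress, were called in both directions. Of 12, 4 were called higher in the AVC than in the chambers and 4 lower, with a median log2 ratio of -0.50, beside 43.4% higher, 8.12% lower and a median of 0.88 over all genes. *Nppb*, a natriuretic peptide gene, gave 255 TPM for the AVC, 156 for the OFT, 871 for the atria and 3754 for the ventricles. *Myl2*, the ventricular light chain, was at 1067, 1807, 55.5 and 6196 TPM, and *Myl7*, the atrial light chain, at 4341, 4222, 1088 and 775 TPM, in the same order. The 4 called higher in the AVC than in the summed chambers were *Nppa*, *Gja5*, *Irx4* and *Myl7*. The 4 called lower were *Nppb*, *Gja1*, *Cited1* and *Myl2*. *Nppa* gave 316 TPM for the AVC, 31.3 for the OFT, 18.2 for the atria and 29.8 for the ventricles. *Nppa*, *Gja5*, *Irx4*, *Gja1* and *Cited1* were named after their calls were seen.

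Of 12 signals of the canal myocardium and cushions, 9 were called higher in the AVC than in the chambers and 2 lower, with a median log2 ratio of 2.93, beside the same 43.4% and 8.12% of all genes. *Bmp2*, the canal signal that starts the cushion transition, gave 220 TPM for the AVC, 27.1 for the OFT and 4.50 for the atria, with none listed for the ventricles, and it was called lower in the null AVC, at 51.2 TPM. In the null AVC 2 of the 12, *Bmp4* and *Mycn*, were called higher and 2, *Bmp2* and *Cacna1g*, lower, beside 11.9% and 12.7% of all genes. *Bmp4*, *Mycn* and *Cacna1g* were named after their calls were seen. *Has2*, which makes the hyaluronan of the cushion matrix, gave 215 TPM for the AVC and 241 for the OFT, against 1.71 and 9.23 for atria and ventricles. *Hey1*, a Notch target of the chambers, was called lower in both cushion regions, with 5.43 TPM for the AVC and 12.1 for the OFT against 157 for the atria and 83.1 for the ventricles.

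The genes of the second heart field, where *Tbx1* acts, were read in part. Of 12, 8 could be tested in the OFT against the chambers, and 5 of these were called higher and none lower, beside 40.6% and 8.88% of all genes. *Isl1*, a marker of that field, gave 72.9 TPM for the OFT, 2.30 for the AVC and 1.5 for the atria, with none listed for the ventricles. *Wnt11*, a signal of the outflow tract, gave 163 TPM for the OFT and 83.0 for the AVC, but was not called.

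Epicardial and sinus venosus genes, the company of *Tbx18*, were mostly lower in the OFT. Of 10, 6 were called lower in the OFT than in the chambers and 1 higher (8.88% and 40.6% of all genes), with a median log2 ratio of -1.96. In the AVC 1 was called higher and none lower, beside 43.4% and 8.12% of all genes. The gene called higher in both was *Wt1*, an epicardial marker, named after its calls were seen. It gave 15.6 TPM for the AVC, 8.54 for the OFT and 1.66 for the ventricles, with none listed for the atria. *Tcf21*, a factor of the epicardium, gave 92.2 TPM for the AVC, 16.5 for the OFT, 139 for the atria and 111 for the ventricles. The 6 epicardial markers summed to 200 TPM for the AVC, 94.7 for the OFT, 281 for the atria, 249 for the ventricles and 144 for the null AVC, with *Wt1* not listed in the atria. Like *Tbx18*, this sum was lowest in the OFT, and the part of epicardial content in the *Tbx18* levels was not tested.

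Of 11 further T-box genes 4 were listed in any library. *Mga*, a large T-box protein of the Max network, gave 45.8 TPM for the AVC, 39.9 for the OFT, 35.4 for the atria, 25.8 for the ventricles and 93.1 for the null AVC and was not called in any of the 5 contrasts. *Tbx4*, a factor best known from the hindlimb and lung, gave 4.11 TPM for the AVC and 3.42 for the OFT with no tag elsewhere. It was called higher in the AVC and the OFT than in the chambers (exact p = 5e-05 and 0.00023) and lower in the null AVC than in the wild-type AVC (exact p = 1.95e-05). *Tbr1* and *Tbx6* reached 2.66 TPM at most.

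Profiles were compared by the root mean square difference of centred log2(TPM + 1) over the 5 libraries, among 9086 genes that reached 10 TPM in a library. The genes nearest to *Tbx2* were *Erbb3* (0.0308), *Npr2* (0.107) and *Slc4a3* (0.221), and *Erbb3* was at 20.6, 8.73, 0, 0 and 22.3 TPM in the AVC, OFT, atria, ventricles and null AVC. Nearest to *Tbx3* were *Podxl* (0.489), *Nnat* (0.713) and *Kcna5* (0.746), so no gene followed *Tbx3* closely. Nearest to *Tbx5* were *Ppp1r3a* (0.341), *Phf7* (0.376) and *Slc1a4* (0.452).

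*Tbx18* was nearest to *March8* (0.0967), *Nol11* (0.127) and *Rmi1* (0.136), and *Tbx20* to *Tada2a* (0.0409), *Klc4* (0.0447) and *Ptprd* (0.0873). *Tada2a* was at 19.6, 17.7, 3.00, 4.97 and 13.4 TPM in the same order. The *Tbx20* likeness is to sums that hold the GT-repeat tag. Without that tag *Tbx20* was at 110, 83.1, 5.79, 5.45 and 197 TPM in this order, a different profile. Nearest to *Tbx1* were *Pxk* (0.0886), *Mvb12a* (0.152) and *Wnt11* (0.183), a likeness that rests on 9 *Tbx1* tags. These are descriptions over 5 libraries that share their depth between all genes.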

How the data were processed

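5 libraries were analysed, 1 per group. Per the labels and the study's methods, 21-base reads with a Chastity threshold of 0.6 were taken as tags, and the authors deposited raw counts of tag types above 5 tags. mm9 is the build named in the submitters' processing notes, and the deposited files give no coordinates. Tags were matched exactly, without a genome, to virtual tags at every CATG of 33363 RefSeq-linked transcripts of GENCODE M21 (GRCm38), with 20 As added to each. Of 315529 virtual tags 308986 belong to 1 gene. Between 70.7% and 74.6% of the tags of a library matched 1 gene. Contrasts were tested in edgeR 4.0.16 by its exact test, two-sided (dispersion 0.12, deposited totals as library size, unadjusted p under 0.05), tested on simulated data first. Levels have exact Poisson intervals, and ratios and shares Clopper-Pearson intervals. 5 tags for each tag type of the gene seen in any library gave bounds, which leave out the counting error of the other side. The members and gene lists were chosen with earlier results of these data known. Named were the members, *Twist1*, the 3 genes nearest to each member and, for each list, the 4 listed genes with the highest wild-type level, of which the text gives a selection. 17 other settings were tried, and 1 more was chosen after seeing the data. RefSeq proteins and promoters were not used here.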

Additional observations from a re-analysis of the deposited data

Results flagged for a closer look

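Antisense tags, which enter no level of the report, were present for 5 of the 6 genes above the lowest level a library lists. Whether these tags also occur elsewhere in the genome was not checked. *Tbx20* antisense tags reached 102 TPM for the null AVC against 41.5 for the AVC, 34.4 for the OFT, 3.86 for the atria and 3.31 for the ventricles. An antisense tag at the site 4791 bases from the transcript end went from 7.08 TPM in the wild-type AVC to 51.6 in the null, 7.29-fold (5.36 to 10.2). *Tbx5* antisense tags gave 66.3 TPM for the null AVC, 45.3 for the AVC, 8.79 for the atria and 6.63 for the ventricles, and none for the OFT, so in the null AVC they were 108% of the sense tags. *Tbx3* antisense tags gave 55.1 TPM for the null AVC, 37.5 for the AVC, 2.85 for the OFT and 1.42 for the ventricles, and none for the atria. The ventricles thus listed 6 antisense *Tbx3* tags and no sense tag. *Tbx2* antisense tags were at most 6.25 TPM, in the AVC, and *Tbx18* antisense tags at most 6.7 TPM, in the null AVC, against 6.43 in the atria.

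The annotated antisense neighbour *Tbx3os1* gave 9.22 TPM for the AVC, 1.93 for the atria and 13.6 for the null AVC, and none for the OFT or ventricles. The transcript *2610027K06Rik*, on the strand opposite *Tbx2*, gave 6.91 TPM for the AVC and 20.04 for the null AVC, and none elsewhere. *Tbx3os1* spans chr5:119570130-119671365, and the listed *Tbx3* antisense tags lie from chr5:119672010 on. *2610027K06Rik* spans chr11:85791661-85832223, and *Tbx2* starts at chr11:85832551. As annotated, neither neighbour thus holds the antisense tags given above.

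The AVC and OFT, both set against the same chambers, differed in *Tbx5* (exact p = 1.7e-05) and *Tbx3* (exact p = 0.000776) when tested against each other. *Tbx1* was also called (exact p = 0.0113, adjusted p = 0.162), but on 9 OFT tags against none, and its difference is not bounded. With 1 library per group, outlying samples were not looked for.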

How the results depend on the processing

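No paired analysis was possible because each group has 1 library. Of 414 member ratios recomputed under 17 other settings and 1 more chosen after seeing the data, 363 kept direction and call, 21 reversed, 12 gained a call and 18 lost it. Of 162 counts of called members 139 stayed within 1.5 times, and the cause of a change was not tested unless the construction shows it. Higher calls of the AVC against the chambers were 2 at dispersion 0.4 and 2 with the site nearest the transcript end alone, which also gave 1 lower call, *Tbx5* at -7.01, since its end tag is listed in the chambers alone. For the OFT against the chambers, TMM, DESeq2 size factors, dispersion 0.4, at least 50 tags per gene and 5 tags for missing tag types each left 2 higher calls. Lower calls there were 2 with TMM, DESeq2 size factors or the end site alone and 1 at dispersion 0.05. For the AVC against the OFT, dispersion 0.05 gave 4 higher calls and dispersion 0.4 gave 1. The *Tbx1* lower call there became 0 at dispersion 0.4, with adjusted p, above 10 tags per type, at 50 tags per gene and with 5 tags filled in, and the end site alone gave 2 lower calls, *Tbx1* and *Tbx2* (-6.93). The *Tbx3* call of the ventricles became 0 at 50 tags per gene and with 5 tags filled in. The end site alone gave 1 higher call in the null AVC, *Tbx2*. Reversed log2 ratios of members that were not called were -0.53 (TMM), -0.57 (DESeq2) and -0.08 (end site) for *Tbx18*, AVC against chambers, and -0.17 (all-tag totals) and -0.03 (end site) for *Tbx20*, AVC against OFT. In the ventricles against the atria they were, for *Tbx5*, -0.24 (TMM), -0.23 (DESeq2), -0.06 (all-tag totals), -0.21 (no haemoglobin), -0.39 (above 10 tags) and -0.31 (end site), for *Tbx18* -0.13, -0.12 and -0.10 (TMM, DESeq2, no haemoglobin) and for *Tbx20* -0.09 (no low-complexity tags). In the null AVC they were -0.07 (5 tags filled in) and -0.03 (no low-complexity tags) for *Tbx2*, -0.06 (thinned) for *Tbx5* and 0.84 (no low-complexity tags) for *Tbx20*. Counts over all genes moved by more than 1.5 times under several settings. Higher calls of the AVC against the chambers were 5429, and 3208 (TMM), 3149 (DESeq2), 2536 (dispersion 0.4) or 3505 (5 tags filled in), and lower calls 1015, and 2194, 2238, 338 or 668 in the same order and 627 at 50 tags per gene. For the OFT higher calls were 5057, and 3258, 3241, 2420 or 3191, and lower calls 1106, and 2200, 2231, 417 or 709 in that order, 698 at 50 tags per gene and 1718 at dispersion 0.05. For the AVC against the OFT calls were 923 higher and 655 lower, and 1507 and 1067 at dispersion 0.05, 378 and 309 at dispersion 0.4, 236 and 156 with adjusted p, 209 and 114 at 50 tags per gene and 250 and 155 with 5 tags filled in. For the ventricles they were 1189 and 968, and 431 and 459 at dispersion 0.4, 371 and 300 with adjusted p, 338 and 116 at 50 tags per gene, 431 and 154 with 5 tags filled in, and 2118 higher at dispersion 0.05. For the null AVC they were 1539 and 1650, and 2443 and 3007 at dispersion 0.05, 506 and 307 at dispersion 0.4, 656 and 511 with adjusted p, 935 higher at 50 tags per gene, 764 higher with 5 tags filled in and 1046 lower with all-tag totals, where the share of higher calls went from 48.3% to 67.1%. Levels near 1 TPM, such as *Tbx1*, are limited by the 5-tag rule of the files.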
